A study of Mus musculus with 21 samples.

Results

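Border macrophages and microglia were followed through 10 marker genes, picked by symbol from the 25239 gene symbols of each deposited table. The rule uses no measured value, but the genes were chosen with earlier results of these data known. Mrc1, Cd163, Lyve1, F13a1 and Pf4 mark border macrophages, Cx3cr1, P2ry12, Tmem119 and Trem2 mark microglia, and Csf1r is used by both cell types. All 10 were found in both tables, in 21 RNA sequencing libraries. The 6 Ins2 and 5 control libraries of choroid plexus (CP), the epithelial tissue that makes cerebrospinal fluid, and the 5 Ins2 and 5 control libraries of hypothalamus (HT) all came from C57BL/6J mice of WT genotype. In both tissues the Ins2 groups are animals in which the insulin gene Ins2 was overexpressed in the choroid plexus. The controls are labelled as having had no treatment, although the column names of the HT controls begin with GFP, so whether they carried a GFP vector is unknown. The labels state neither how Ins2 was delivered, nor the age of the animals, nor whether each library is a separate animal, so p-values cover only the spread between these libraries.

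Border macrophages live in the meninges, around blood vessels and in the stroma of the choroid plexus, and they carry scavenger receptors for sugars, haemoglobin and matrix. Microglia live within the brain tissue itself and keep genes such as P2ry12 and Tmem119 on when undisturbed. Both depend on CSF1R, the receptor of CSF1 and IL-34, and the choroid plexus also holds microglia-like cells on its ventricular face. In bulk tissue, fewer cells of a type and less RNA per cell cannot be told apart.

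Mrc1 and P2ry12 are shown as a border and a microglia gene whose reads per Csf1r read did not overlap between the tissues. Trem2 is shown because its Ins2 libraries all lay above the control mean in CP and all below it in HT, within overlapping ranges. Their promoters are shown for that reason, as the 250 bases before the RefSeq start site (GRCm38.p6), written 5′ to 3′ on the gene's strand. Capitals mark the core motif of PU.1, the transcription factor of macrophages, searched as GAGGAA on both strands, so that the reverse strand reads TTCCTC.
Mrc1, chr2:14229164-14229413, plus strand: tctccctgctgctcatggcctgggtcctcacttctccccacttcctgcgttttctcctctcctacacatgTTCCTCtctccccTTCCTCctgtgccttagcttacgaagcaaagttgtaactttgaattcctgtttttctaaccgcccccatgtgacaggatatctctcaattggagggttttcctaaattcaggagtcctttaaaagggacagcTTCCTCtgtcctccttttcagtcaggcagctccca
P2ry12, chr3:59262986-59263235, minus strand: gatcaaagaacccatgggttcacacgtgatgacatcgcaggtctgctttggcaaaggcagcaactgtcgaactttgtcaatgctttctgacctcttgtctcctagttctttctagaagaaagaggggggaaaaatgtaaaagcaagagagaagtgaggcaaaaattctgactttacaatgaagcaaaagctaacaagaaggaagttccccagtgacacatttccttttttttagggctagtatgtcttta
Trem2, chr17:48346151-48346400, plus strand: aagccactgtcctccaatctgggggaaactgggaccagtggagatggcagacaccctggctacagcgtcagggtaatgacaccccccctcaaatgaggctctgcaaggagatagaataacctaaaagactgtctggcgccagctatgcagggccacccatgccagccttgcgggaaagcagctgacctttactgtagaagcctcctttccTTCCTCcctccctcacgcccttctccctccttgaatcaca

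The Mrc1 window held 3 such cores and the Trem2 window 1, all on the reverse strand, and the P2ry12 window held none of exactly these letters. RefSeq gave a promoter for 7 of the 10 members, and 4 of these 7 had a core in the 300 bases searched, which run to 50 bases past the start. The core is common: 28.3% of 32851 mouse promoters of that length held it on either strand. Of 3 other motifs searched on both strands, the AP-1 site TGANTCA (in 7.81% of promoters) was found in Trem2 only, 9 to 3 bases before its start. The MAF core TGCTGA (19.5%) and the PU.1 and IRF composite element (2.72%) were in none of the 7 members' windows. A match is a run of letters and not a measured binding site.

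The libraries held 25.95 to 36.3 M reads in genes in CP and 27.4 to 62.1 M in HT (M, mega). Ins2 itself averaged 826 ± 162 size-factor-scaled reads in Ins2 CP and 429.9 ± 50.7 in control CP (SD, n = 6 and 5; limma adjusted p = 0.00594), and was at 0 in 9 of 10 HT libraries. The summed choroid plexus epithelium genes ran from 165011 to 185836 reads per M reads over CP libraries and from 246 to 286 over HT libraries, as the tissue labels say. CP control 2 stood apart from the other 10 CP libraries in some genes of neighbouring brain tissue. Its summed oligodendrocyte genes were 1846 reads per M reads, against 88.8 to 208 in the others, and its hypothalamic peptide genes 22.6, against 0.872 to 2.87. Its astrocyte genes were at 581, against 281 to 396, while its neuron genes, at 17.6, lay within the 7.44 to 18.4 of the others. The tables of the 2 tissues were scaled separately, so levels are compared between CP and HT as a description and without a test, as reads per M reads in genes.

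The first comparison asked how the border and microglia patterns differ between the tissues, in control libraries. The microglia genes were the clear divide: all 4, and Csf1r, were lower in every CP control library than in any HT control library. P2ry12 averaged 0.676 ± 0.532 reads per M reads in CP controls and 21.6 ± 1.94 in HT controls (SD, n = 5 each), so CP held 0.0313 times the HT level. Among the border genes none of the 5 had ranges that parted the tissues. Mrc1, the border gene with the most reads in CP, averaged 3.13 ± 1.26 reads per M reads in CP controls and 1.24 ± 0.351 in HT controls.

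Ranges apart are common between tissues so unlike, and this must be read beside the members' counts. Of 18276 genes with a mean of at least 0.1 reads per M reads in either tissue, 50.4% were lower in every CP control than in every HT control, and 22.7% were higher. The 5 of 10 members lower in CP match that share, so the count itself sets them apart from nothing. Their size was larger: the 4 microglia genes had a median log2 of CP over HT of -2.93, the 5 border genes -0.17 and all genes -0.65. Scaling matters here, since 20 genes took 24.4% of reads in CP and 5.11% in HT. TMM factors over all libraries raised the log2 of CP over HT by a median of 0.46, and leaving out those 20 genes by 0.33.

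**Figure D1:**
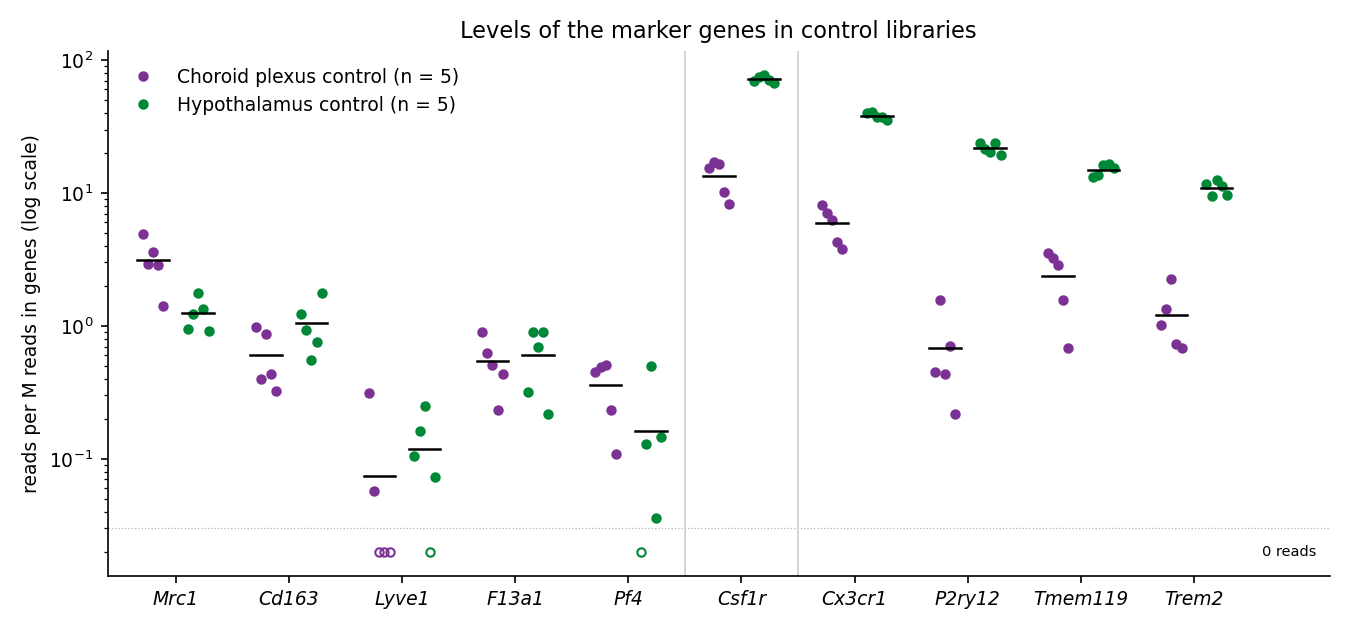
Reads per M reads in genes (log axis) of the 10 genes in CP control and HT control libraries, 5 each; points are libraries, bars means, and open points on the bottom line libraries with 0 reads. Csf1r and the 4 microglia genes to its right have no overlap between the tissues, and the 5 border genes to its left all overlap.

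Mrc1 (GRCm38 chromosome 2, 14229392 to 14332057, the build used for all positions given) encodes the mannose receptor CD206, which takes up glycoproteins and microbial sugars. CP controls had 1.41 to 4.88 reads per M reads (median 2.92) and HT controls 0.913 to 1.78 (median 1.23). The lowest CP library, control 5, lay within the HT range and the other 4 CP libraries lay above it. The level in CP was 2.52 times that in HT, a log2 of 1.33, and 1.79 with TMM factors.

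Cd163 (chromosome 6, 124304656 to 124330527) encodes the scavenger receptor for haemoglobin bound to haptoglobin. It averaged 0.601 ± 0.297 reads per M reads in CP controls and 1.05 ± 0.465 in HT controls. The log2 of CP over HT was -0.80, and -0.34 with TMM factors. So the 2 receptors that are often used together for border macrophages stood on opposite sides of an equal level, each within overlapping ranges.

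Lyve1 (chromosome 7, 110850607 to 110863239) encodes a hyaluronan receptor of a subset of border macrophages and of lymphatic endothelium. It had 9 and 2 reads in CP controls 1 and 2 and 0 reads in the other 3, and 5, 5, 9, 0 and 2 reads in the HT controls. A count of 0 in those 3 CP libraries is compatible with as many as 3 reads, which is 0.1004 to 0.109 reads per M reads, counting error alone considered. Without CP control 1 the CP level was 0.121 times the HT level, against 0.627 times with it, so that library decides the value. Of other lymphatic genes, Ccl21a had 0 reads in all 21 libraries. Pdpn, which other cells of these tissues also use, averaged 120.1 reads per M reads in CP controls and 12.4 in HT controls. Of 5 lymphatic genes above the minimum level, Pdpn and Itga9 were higher in all CP controls than in all HT controls. Prox1, Flt4 and Reln were lower in all CP controls. These shares were 40% and 60%, against 22.7% and 50.4% of all genes. The median log2 of CP over HT was -1.33 for the 5 genes.

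F13a1 (chromosome 13, 36867178 to 37050244) encodes the A subunit of coagulation factor XIII and Pf4 (chromosome 5, 90772435 to 90773383) the chemokine platelet factor 4. Both are made by macrophages and also by megakaryocytes and platelets. F13a1 was at 0.542 ± 0.249 reads per M reads in CP controls and 0.609 ± 0.324 in HT controls. Its log2 of CP over HT was -0.17, and it changed sign to 0.16 without the 20 most abundant genes and to 0.30 with TMM factors, so no direction can be given. Pf4 was at 0.358 ± 0.177 in CP controls and 0.163 ± 0.199 in HT controls, 2.20 times as high in CP. HT control 3, with 18 of the 27 HT control reads, moves this most: without it the CP level was 4.59 times the HT level. Platelet genes differed widely in level in the same libraries. Itga2b, the highest of those listed, averaged 10.4 reads per M reads in CP controls and 7.07 in HT controls. Ppbp, a platelet chemokine gene, averaged 0.193 in CP controls and 0.0868 in HT controls. Of 7 platelet genes above the minimum level, Itga2b was higher in all CP controls (14.3%, against 22.7% of all genes). Gp1bb and Gp5 were lower in all CP controls (28.6%, against 50.4% of all genes). Gp1bb averaged 0.657 in CP controls and 5.74 in HT controls, and Gp5 0.0397 in CP controls and 2.33 in HT controls. The median log2 of CP over HT of these 7 was -1.20. The share of platelet RNA in F13a1 and Pf4 was not tested.

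Csf1r (chromosome 18) averaged 13.5 ± 3.96 reads per M reads in CP controls, from 8.28 to 16.99, and 72.1 ± 4.09 in HT controls, from 67.6 to 77.6. The CP level was 0.187 times that in HT, a log2 of -2.42, and -1.96 with TMM factors. Hmgxb3 runs on the other strand and shares 15.1% of the Csf1r exon bases. The strand setting of the counting is not given in the sources used here, so reads of these genes cannot be told apart there. The other 9 members share 1.73% of exon bases or less with such genes.

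Cx3cr1 (chromosome 9, 119901616 to 120069879) encodes the receptor of the neuronal chemokine fractalkine, which border macrophages also carry. It was at 5.90 ± 1.83 reads per M reads in CP controls and 38.0 ± 2.21 in HT controls, 0.155 times as high in CP. Tmem119 (chromosome 5, 113793729 to 113800516), a membrane protein gene of mature microglia, was at 2.38 ± 1.21 in CP controls and 15.0 ± 1.51 in HT controls, 0.159 times as high in CP. Trem2 (chromosome 17, 48346401 to 48354147) encodes a lipid-sensing receptor that signals through Tyrobp. Its level was 1.21 ± 0.648 reads per M reads in CP controls and 10.9 ± 1.28 in HT controls, 0.111 times as high in CP.

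P2ry12 (chromosome 3, 59216272 to 59262871), the receptor by which microglia sense ADP, differed most of all 10. CP controls 1 to 5 had 13, 55, 12, 21 and 6 reads, and the HT controls 1 to 4 and 6 had 1117, 660, 733, 651 and 526 reads. Of the 107 CP control reads 55 came from control 2, the library with the high brain tissue genes. Without it CP controls averaged 0.451 ± 0.199 reads per M reads, 0.0209 times the HT level, a log2 of -5.58 against -5.00 with it. How much of the P2ry12 signal in CP comes from adjoining brain tissue was not tested. Ins2 CP libraries 4, 5 and 6 had 41, 47 and 29 P2ry12 reads. Their summed oligodendrocyte genes, 175, 208 and 191 reads per M reads, were the highest of the 10 libraries other than control 2. Ins2 CP library 1, however, had 36 P2ry12 reads at an oligodendrocyte sum of 105, and Ins2 CP library 2 had 4 at 134.

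A ratio within a library does not depend on its scaling. Per 100 Csf1r reads, CP controls held 17.0 to 31.96 Mrc1 reads and HT controls 1.35 to 2.297, 13.6 times as many in CP by the group means. For P2ry12 it was 2.61 to 9.27 in CP controls and 26.3 to 33.9 in HT controls, 0.162 times as many in CP. Without CP control 2 the CP range for P2ry12 was 2.61 to 6.89 and the level 0.125 times that in HT. Pf4 was 11.5 times as high in CP, and 22.7 times without HT control 3, where Mrc1 was 14.8 times as high. Cd163 was 2.99 times as high in CP on this scale, with overlapping ranges (2.36 to 6.39 in CP, 0.718 to 2.60 in HT), while Cx3cr1, Tmem119 and Trem2 were 0.834, 0.798 and 0.577 times as high, also with overlapping ranges. Relative to Csf1r, all 5 border genes were higher in CP by their means. Lyve1, though, was lower there without CP control 1 (0.528 times the HT ratio, against 2.99 times with it). F13a1, whose reads per M reads gave no direction, was 4.85 times as high in CP, with ranges apart (2.30 to 5.94 in CP, 0.3245 to 1.28 in HT). Ranges also parted the tissues for Mrc1 and Pf4, and among the microglia genes for P2ry12 only. Csf1r itself had a log2 of CP over HT of -2.42, against a median of -0.65 over all genes. A gene at that median would thus also be higher relative to Csf1r in CP. The share of all genes with ranges apart on this scale is not given. The ranges apart of Mrc1, F13a1, Pf4 and P2ry12 therefore cannot be read as particular to these genes. The overlap of Csf1r with Hmgxb3 also limits this scale.

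Summed over the sets, the 5 border genes gave 33.9 to 57.6 reads per 100 microglia reads in CP controls (median 46.2) and 2.96 to 4.40 in HT controls (median 3.89). The lowest CP control, control 2, lay well above the highest HT control, and without it the CP controls ran from 42.3 to 57.6. The mean log2 ratio was 3.63 higher in CP, a 12.4-fold difference, with a pooled SD between libraries of 0.26 on the log2 scale. With P2ry12 and Tmem119 alone as the microglia set it was 4.26 higher. The microglia genes had a median log2 of CP over HT of -2.93, against -0.65 over all genes. Genes at the all-gene median would thus also give a higher ratio in CP. The sum of border genes itself was 4.71 ± 1.96 reads per M reads in CP controls and 3.18 ± 0.437 in HT controls, and that of microglia genes 10.16 ± 3.60 in CP controls and 85.6 ± 3.52 in HT controls.

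**Figure D2:**
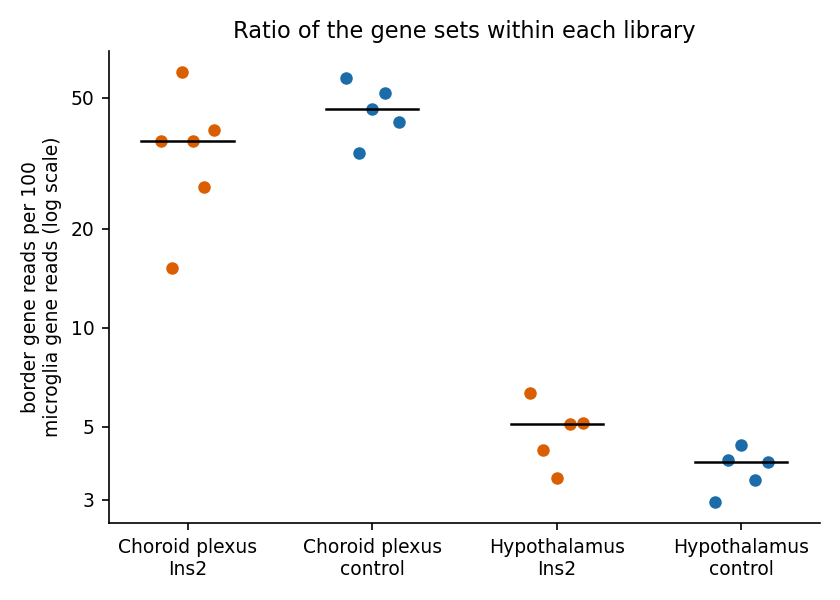
Reads of the 5 border genes per 100 reads of the 4 microglia genes in each library (log axis), with a bar at the median of each group of 6 Ins2 CP, 5 control CP, 5 Ins2 HT and 5 control HT libraries. CP libraries lie between 15.2 and 59.8 and HT libraries between 2.96 and 6.35, with no overlap between the tissues.

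Levels of different genes can be ordered only per length, here as reads per kilobase of annotated exon per M reads (RPKM). In CP controls the order was Csf1r 2.33 ± 0.687, Cx3cr1 1.31 ± 0.405, Tmem119 1.03 ± 0.521, Pf4 0.496 ± 0.245, Mrc1 0.492 ± 0.197, P2ry12 0.266 ± 0.209, Trem2 0.245 ± 0.131, Cd163 0.11 ± 0.0545, F13a1 0.0804 ± 0.037 and Lyve1 0.0254 ± 0.0467. Each neighbour in that order overlapped the next in range, and without control 2 P2ry12, at 0.177 ± 0.0781, came below Trem2, at 0.238 ± 0.15. In HT controls Csf1r led with 12.5 ± 0.709, followed by P2ry12 at 8.501 ± 0.762 and Cx3cr1 at 8.43 ± 0.491, which did not differ beyond their spread. Tmem119 at 6.48 ± 0.653, Trem2 at 2.21 ± 0.259 and then the border genes, from Pf4 at 0.226 ± 0.276 down to Lyve1 at 0.0405 ± 0.0323, were separate steps, while neighbours among the border genes overlapped. Even in CP, then, Cx3cr1 and Tmem119 had higher mean levels per length than any border gene, without overlap for Cx3cr1 and with overlapping ranges for Tmem119.

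Wider lists of marker genes were chosen, as the members were, with earlier results in view. Of 13 further microglia genes above the minimum level, 12 (92.3%) were lower in all CP controls than in all HT controls, against 50.4% of all genes. Their median log2 of CP over HT was -2.40. Among the 4 highest, Sall1, a transcription factor gene of microglial identity, was at 2.22 ± 1.47 reads per M reads in CP controls and 25.2 ± 4.60 in HT controls. The drop was not particular to microglia genes. Of 21 genes shared by brain macrophages, 15 (71.4%) were lower in all CP controls, with a median log2 of -1.83. Of 13 further border macrophage genes 3 were higher in all CP controls, or 23.1%, a share near the 22.7% of all genes, and 1, Cd36, was lower. Their median log2 was 0.40. Folr2, a folate receptor gene of tissue macrophages, was the member of that list with the largest excess in CP, 7.95 ± 0.820 reads per M reads in CP controls and 0.306 ± 0.162 in HT controls. Dab2 and Maf, the other 2, are also used by other cells of the choroid plexus. Folr2 ran from 7.16 to 9.07 reads per M reads over CP controls, where Mrc1 ran from 1.41 to 4.88. Which cells the Folr2 reads come from was not tested.

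The ligands of these receptors were measured alongside. Csf1 was at 12.5 ± 1.72 reads per M reads in CP controls and 43.0 ± 3.74 in HT controls, and Il34, the other CSF1R ligand, at 2.36 ± 0.824 in CP controls and 30.5 ± 2.43 in HT controls. Cx3cl1, which encodes fractalkine, was at 93.3 ± 2.66 in CP controls and 326 ± 13.2 in HT controls. Tyrobp, the adaptor of Trem2, was at 1.57 ± 0.732 in CP controls and 6.89 ± 2.02 in HT controls. Each of these 4 was lower in all CP controls than in all HT controls. Apoe, a lipid carrier that Trem2 can bind, was at 4076 ± 208 in CP controls and 2060.1 ± 245 in HT controls. It was higher in all CP controls. Of 16 ligand and partner genes, 11 (68.8%) were lower in all CP controls and 4 (25%) were higher. Among all genes 50.4% were lower and 22.7% higher, so such a parting is common.

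The spread between libraries differed by tissue. Within groups the microglia genes had coefficients of variation from 24.1% to 79.1% in CP and from 5.66% to 11.7% in HT. Read numbers differ too, with group means of 21.4 to 216 reads per microglia gene in CP and 364 to 1448 in HT. Set against the value that counting alone would give, the coefficient of variation of the 4 microglia genes was 2.45 to 4.31 times as large in CP and 1.65 to 3.67 times in HT. The border genes varied by 36.4% to 245% in CP and 16.6% to 122% in HT. In 9 of 10 HT values of border genes the spread was above counting error, the exception being F13a1 in Ins2 HT at 0.993 times the counting value.

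Single libraries moved many members together in CP. Control 5 was lowest of 11 for Csf1r, Cx3cr1, Tmem119 and Trem2, and below the median for all 9 members tested there. Ins2 library 1 was highest for the same 4 genes and below the median for none of the 9. Ins2 library 2 was lowest for Mrc1, Cd163 and P2ry12, at 39.7, 0.827 and 3.31 scaled reads, but not for Csf1r (417) or Cx3cr1 (206). In HT no library was lowest or highest for more than 3 of 8 members.

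**Figure D3:**
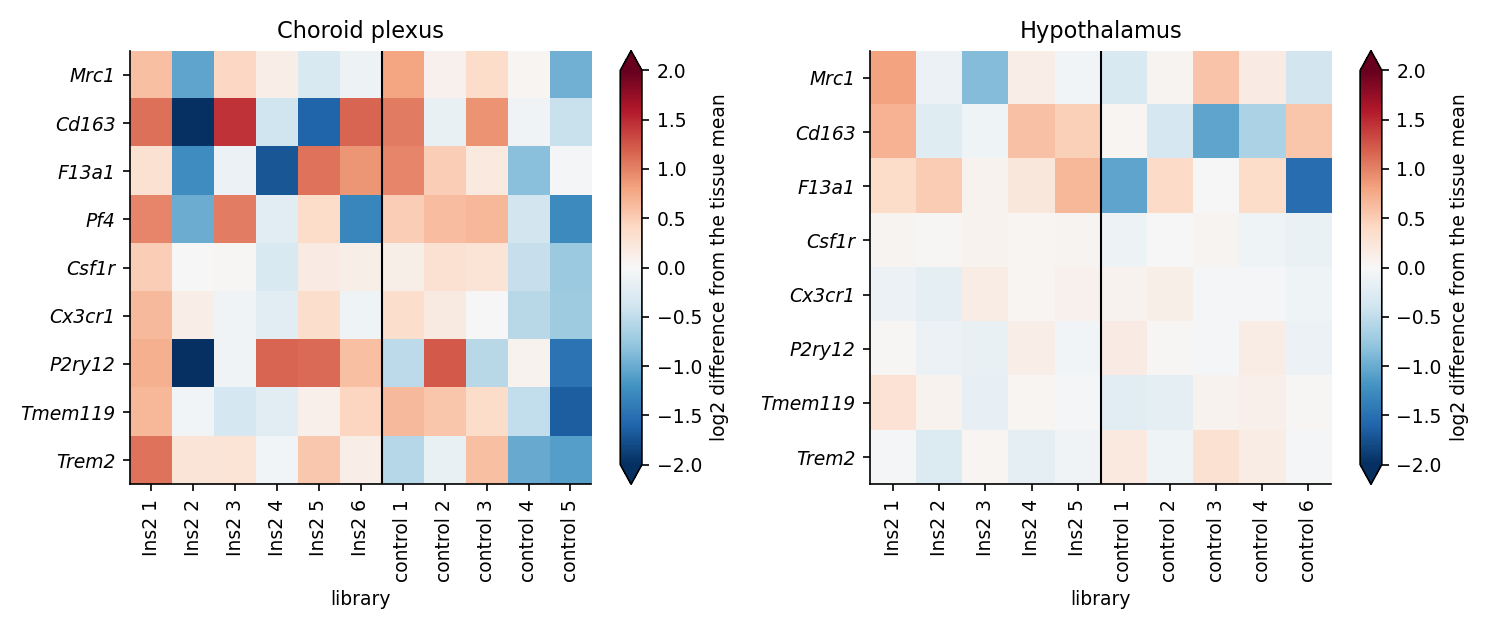
Difference of each library from its tissue mean, in log2(value + 1), for the 9 members tested in CP and the 8 in HT; colours are clipped at 2 on either side, and a line parts Ins2 libraries (left) from controls. In CP, control 5 and Ins2 2 are mostly blue (below the mean) and Ins2 1 is red throughout, while in HT the 5 genes from Csf1r down lie within 0.3 of the mean in all 10 libraries.

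The second comparison asked whether Ins2 overexpression in the choroid plexus went with other levels of these genes in that tissue. No member passed the test there. Of 14533 genes tested in CP, 0.0138% passed (limma, adjusted p under 0.05), and 0 of the 9 members tested did, with the smallest adjusted p at 0.715. An unadjusted p under 0.05 in limma was found for 903 of the 14533 genes and for 1 of the 9 members, Trem2. On the log2(value + 1) scale the 4 border genes that were tested had fold changes below 1 and the 4 microglia genes above 1, each but Trem2 with a 95% interval that held both directions. The plain means of Cd163 and Pf4 were higher in Ins2 CP than in control CP, and edgeR and DESeq2 turned their direction, so no direction is given for the border genes. All 9 had overlapping ranges, where 0.626% of genes tested had ranges apart. The median log2 fold change of the 9 was 0.19 and that of all genes tested -0.0045. The folds of Ins2 over control given below for each tissue come from the limma fit on log2(value + 1). They are not ratios of the plain means.

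Mrc1 had 126, 39.7, 111, 91.3, 66.9 and 77.7 scaled reads in Ins2 CP and 144, 87.8, 108, 85.2 and 42.1 in control CP. The groups overlapped almost fully, with the lowest value in an Ins2 library and the highest in a control. The means were 85.4 ± 31.1 and 93.4 ± 37.1, and the fold was 0.925 (95% interval 0.598 to 1.43; limma adjusted p = 0.9751). The direction turned without control 1 or without Ins2 library 2.

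Cd163 was more scattered, with 30.2, 0.827, 38.4, 10.02, 3.77 and 31.5 scaled reads in Ins2 CP and 28.8, 12.05, 26.1, 12.9 and 9.71 in control CP. The 3 highest and the 2 lowest values were all in Ins2 libraries. Its fold was 0.722 (0.262 to 1.99; adjusted p = 0.953), and its log2 fold change of -0.47 became 0.09 with edgeR and with DESeq2. F13a1 (15.2 ± 10.5 in Ins2 CP and 16.2 ± 7.36 in control CP; fold 0.817) and Pf4 (11.05 ± 7.27 in Ins2 CP and 10.7 ± 5.31 in control CP; fold 0.967) had intervals from 0.367 to 1.82 and from 0.408 to 2.29. Their adjusted p-values were 0.960 and 0.995. Lyve1 had 4 reads in Ins2 library 1 and 0 in the other 5 Ins2 libraries, and 9, 2, 0, 0 and 0 reads in control CP, too few to be tested.

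Csf1r had 583, 417, 420.3, 336, 465 and 452 scaled reads in Ins2 CP and 451, 510.3, 499.7, 302 and 247 in control CP. Controls 4 and 5 were the lowest 2 libraries and Ins2 library 1 the highest. The fold was 1.14 (0.887 to 1.46; adjusted p = 0.907), and the log2 fold change of 0.19 was 0.03 without control 5. Cx3cr1 was at 209 ± 50.3 in Ins2 CP and 176 ± 54.3 in control CP, with a fold of 1.21 (0.906 to 1.61; adjusted p = 0.883). Tmem119 was at 72.9 ± 20.6 in Ins2 CP and 71.0 ± 36.0 in control CP, so its plain means were nearly alike. Its fold on the log2 scale was 1.15 (0.701 to 1.90; adjusted p = 0.956). The log2 fold change of Tmem119, 0.21, became -0.18 without control 5.

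P2ry12 had 32.9, 3.31, 18.7, 45.6, 44.3 and 30.5 scaled reads in Ins2 CP and 13.4, 47.3, 13.04, 20.8 and 6.48 in control CP. The highest value was that of control 2 and the lowest that of Ins2 library 2. The fold was 1.38 (0.594 to 3.20; adjusted p = 0.937). It rests on single libraries: its log2 fold change of 0.46 was 0.83 without control 2 (adjusted p = 0.939), 0.16 without control 5 (0.964) and 0.96 without Ins2 library 2 (0.591).

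Trem2 had the largest fold of the members in CP. Its values were 96.9, 53.7, 54.9, 43.4, 65.9 and 49.4 scaled reads in Ins2 CP and 29.9, 40.4, 68.4, 21.8 and 20.51 in control CP. All 6 Ins2 libraries lay above the control mean, and 4 of the 5 controls lay below every Ins2 library, but control 3 had the second highest value of all 11. The means were 60.7 ± 19.2 and 36.2 ± 19.7, and the fold on the log2 scale was 1.77 (1.13 to 2.77). The unadjusted p was 0.0159 in limma and the exact permutation p 0.0455, and neither passed over all genes (adjusted p = 0.715 and 0.758). Leaving out each library in turn gave log2 fold changes from 0.66 to 1.08, with 0.82 for all libraries.

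**Figure D4:**
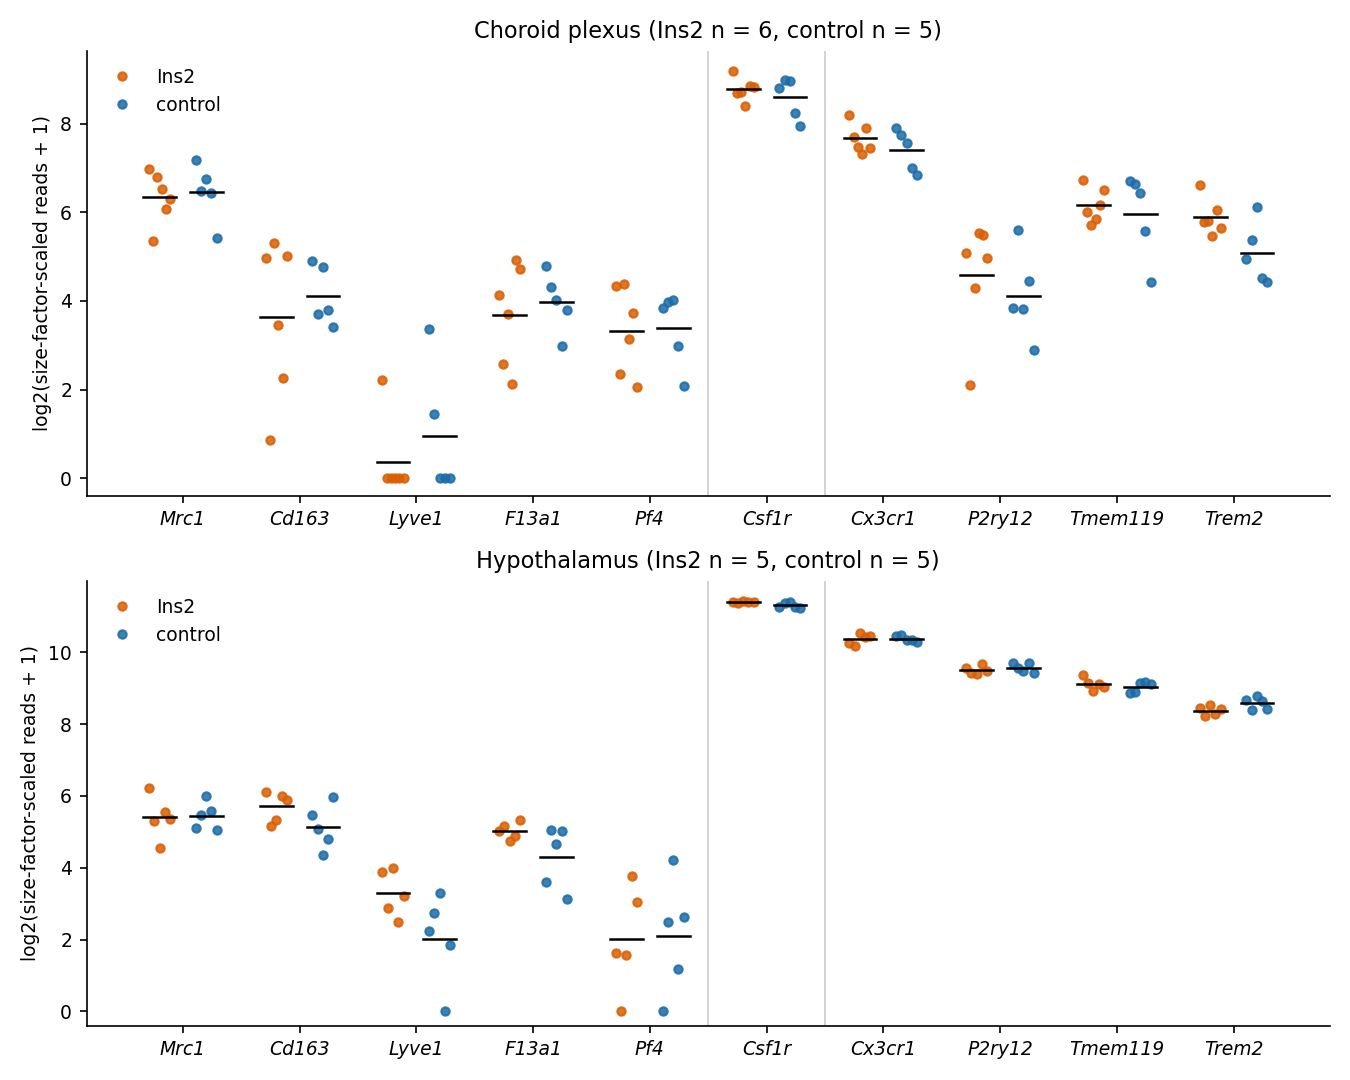
Size-factor-scaled reads as log2(value + 1) of the 10 genes in Ins2 (left of each pair) and control libraries, for CP above and HT below; points are libraries and bars means. Ranges overlap for all 10 genes in both tissues, and the 6 Ins2 CP libraries of Trem2 all lie above the control mean.

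The third comparison asked the same in the hypothalamus, where the animals, but not the tissue sampled, had Ins2 overexpressed. Of 16363 genes tested in HT 0% passed, with 1624 at an unadjusted p under 0.05 in limma; DESeq2 on recovered reads called 41. None of the 8 members tested passed (smallest adjusted p = 0.537, Trem2), and 0 had an unadjusted p under 0.05. With edgeR 0 members passed in either tissue. DESeq2 gave an adjusted p for 0 of 9 members in CP and 1 of 8 in HT (Csf1r, 0.382), so it tells little of the members. All members had overlapping ranges, where 1.5% of genes tested had ranges apart. The microglia genes were measured closely here, so their intervals are narrow.

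Csf1r had 2723, 2653, 2752, 2703 and 2709.6 scaled reads in Ins2 HT and 2456, 2639, 2728, 2479 and 2398 in control HT. All 5 Ins2 libraries lay above the control mean, and controls 2 and 3 lay among or near them. The fold was 1.07 (0.995 to 1.15; limma adjusted p = 0.539). P2ry12 was at 725 ± 57.4 in Ins2 HT and 762 ± 66.1 in control HT, a fold of 0.951 (0.847 to 1.07; adjusted p = 0.787). Cx3cr1 (1328 ± 128 in Ins2 HT and 1339 ± 75.8 in control HT) had a fold of 0.99 (0.895 to 1.09; adjusted p = 0.961), and Tmem119 (559.0 ± 65.1 in Ins2 HT and 528 ± 52.8 in control HT) one of 1.06 (0.92 to 1.21; adjusted p = 0.811).

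Trem2 lay the other way from CP, with 350.0, 296, 367, 312 and 340.0 scaled reads in Ins2 HT and 410.1, 334, 439, 396 and 345 in control HT. All 5 Ins2 libraries were below the control mean, within overlapping ranges. The means were 333 ± 28.8 and 385 ± 44.2, a fold of 0.868 (0.745 to 1.01; adjusted p = 0.537).

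Among border genes in HT, Mrc1 had 73.8, 38.5, 22.6, 45.99 and 40.2 scaled reads in Ins2 HT and 33.6, 43.3, 62.7, 46.9 and 32.4 in control HT. Both the highest and the lowest library were Ins2 ones, and the fold was 0.971 (0.621 to 1.52; adjusted p = 0.9747). Cd163 averaged 53.0 ± 14.9 in Ins2 HT and 37.0 ± 16.6 in control HT, a fold of 1.48 (0.936 to 2.35; adjusted p = 0.574). F13a1 had 31.6, 35.1, 25.6, 28.7 and 39.2 in Ins2 HT and 11.2, 31.9, 24.5, 31.7 and 7.78 in control HT. All 5 Ins2 libraries were above the control mean, yet controls 2 and 4 lay among them, and the fold was 1.66 (0.932 to 2.97; adjusted p = 0.560).

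Lyve1 had 13, 11, 15, 4 and 8 reads in Ins2 HT and 5, 5, 9, 0 and 2 in control HT, under the minimum mean of 10 scaled reads. Fitted with no minimum, its log2 fold change was 1.26 (unadjusted p = 0.0444, adjusted p = 0.552 in limma). Pf4 had 2, 0, 2, 11 and 7 reads in Ins2 HT and 0, 4, 18, 1 and 4 in control HT, with a log2 fold change of -0.10 (adjusted p = 0.976) in that fit.

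The ratio of the sets overlapped between the groups in both tissues. Border reads per 100 microglia reads were 15.2 to 59.8 in Ins2 CP (median 36.9) and 33.9 to 57.6 in control CP (median 46.2). In HT they were 3.49 to 6.35 in the Ins2 group (median 5.09) and 2.96 to 4.40 in controls (median 3.89). As the sets were chosen with results known, no test is given for them.

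Whether a response differed between the tissues was tested for the 8 members measured in both, by subtracting the HT log2 fold change from the CP one. Over 13997 genes 0.107% passed, and 0 of the 8 members did. Trem2 had the largest difference relative to its error, 1.03 (95% interval 0.35 to 1.70; unadjusted p = 0.00466, adjusted p = 0.251, limma errors with Benjamini-Hochberg adjustment). That of Cd163 was -1.04 (-2.62 to 0.54) and that of F13a1 -1.03 (-2.41 to 0.36), with adjusted p-values of 0.672 and 0.622. For Mrc1, Csf1r, Cx3cr1, P2ry12 and Tmem119 the differences ran from -0.07 to 0.54, each with an interval that held both directions. This test treats CP and HT libraries as unrelated samples, and whether any came from the same animals is not given in the labels.

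**Figure D5:**
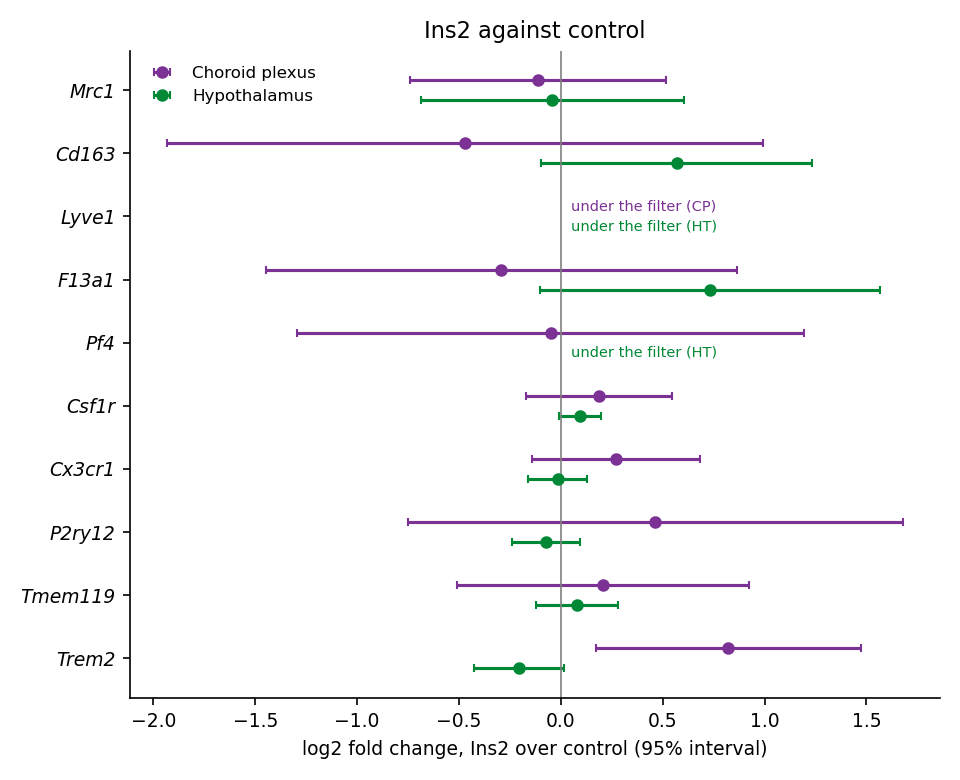
Log2 fold change of Ins2 over control with its 95% interval for each member in CP (above) and HT (below), from limma on log2(value + 1). Of the 17 intervals only that of Trem2 in CP, 0.17 to 1.47, does not reach 0. The intervals are not adjusted for the number of genes, and 903 of 14533 genes tested in CP had an unadjusted p under 0.05 in limma. The HT intervals of Csf1r and the microglia genes are the narrowest.

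Genes of the same cells, from lists chosen with earlier results in view, also gave no call. Of 21 genes shared by brain macrophages 0 passed in CP, where 15 had positive log2 fold changes (median 0.49), and 0 passed in HT, where 7 did (median -0.03). Among the 4 highest in CP, Lyz2, a lysozyme gene, was at 537 ± 161 in Ins2 CP and 409 ± 215 in control CP (log2 fold change 0.53, limma adjusted p = 0.839), while Hexa, Mertk and Axl were at -0.08, -0.18 and -0.04. Ctss, a lysosomal protease gene of microglia singled out after its values were seen, was at 446 ± 62.5 in Ins2 CP and 291 ± 105 in control CP (0.70, adjusted p = 0.515) and at 2065 ± 138 in Ins2 HT and 2208 ± 289.6 in control HT (-0.09, adjusted p = 0.709). Of 12 further microglia genes tested in CP 9 were above 0 (median 0.14) and of 13 in HT 4 were (median -0.10), and of 11 border macrophage genes in CP 7 were above 0 (median 0.02) and of 9 in HT 5 were (median 0.06). None of them passed in either tissue. The medians of all genes tested were -0.0045 in CP and 0.0011 in HT.

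The partners of the receptors did not pass either. In CP, Csf1 was at 352 ± 58.8 in Ins2 and 373 ± 53.1 in control libraries (log2 fold change -0.09), Il34 at 71.5 ± 27.8 in Ins2 and 70.5 ± 25.1 in control libraries (-0.03) and Cx3cl1 at 2642 ± 208 in Ins2 and 2782 ± 95.2 in control libraries (-0.08). Tyrobp was at 66.7 ± 28.6 in Ins2 CP and 46.7 ± 21.8 in control CP (0.52, limma adjusted p = 0.868), and at 228 ± 43.3 in Ins2 HT and 243 ± 71.1 in control HT (-0.05). Of the 14 partner genes tested in CP 6 were above 0, and of 16 in HT 10 were. Of 11 genes of activated microglia tested in each tissue, 3 were above 0 in CP and 6 in HT, and 0 passed.

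Summed markers of other myeloid and blood cells had overlapping ranges in Ins2 and control CP. Monocyte genes summed to 13.6 to 23.9 reads per M reads in Ins2 CP and 12.8 to 21.9 in control CP. Nr4a1, at 9.43 in CP controls, and Ly6c1, at 6.91, were the highest of them. Ccr2 was at 0.480 and Ly6c2 at 0.0405, so the sum hardly reflects these genes. Neutrophil genes summed to 0.0551 to 0.967 in Ins2 CP and 0.0335 to 0.628 in control CP. Haemoglobin genes were listed at 0 in every library of both tissues, so blood content could not be read from them. The summed platelet genes were 12.1 to 16.8 reads per M reads in Ins2 CP and 12.7 to 18.6 in control CP. Their part in the values of F13a1, Pf4 and Lyve1 was not tested.

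Genes that varied most like Mrc1 over the 11 CP libraries were Fat4, Rimbp2, Ptn, Col23a1 and Tmem52, by the root mean square difference of log2 values centred on their means. Fat4 was nearest, at 0.24, where Mrc1 itself had an SD of 0.59, and 619 genes with a mean of at least 50 and enough spread were candidates. In HT the genes most like P2ry12 over 10 libraries were Map3k2, Rps14, Hdc, Mtch2 and Cab39l, with 0.04 for Map3k2. P2ry12 had an SD of only 0.12 there and 10567 genes were candidates, so likeness in HT says little. The genes of a library share its depth and its piece of tissue, and these likenesses are descriptions.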

How the data were processed

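The deposited files are one table of gene counts per tissue, divided by size factors by the authors, a normalized signal that is not whole-numbered. Per the submitters' processing notes, HISAT2, featureCounts and DESeq2 were used with GRCm38/mm10. No source used here states versions or whether reads were counted by strand. Libraries were poly(A)-selected and directional, per the labels' protocols.

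Whole reads were recovered from the step of each library for 100% of values (tolerance 0.02), giving 25.95 to 36.3 M reads in genes in CP and 27.4 to 62.1 M in HT. Genes with a mean of at least 10 were tested within each tissue on log2(value + 1) with limma 3.58.1 in R 4.3.3, adjusted by Benjamini-Hochberg over all genes; 9 of 10 members passed that minimum in CP (not Lyve1) and 8 of 10 in HT (not Lyve1 or Pf4). For single members, an exact permutation test, two-sided, used all 462 (CP) or 252 (HT) label arrangements. The difference of responses used both limma errors and was adjusted over 13997 genes. edgeR 4.0.16 and DESeq2 1.42.0 on recovered reads, other pseudocounts (0.5 and 5), minimum levels and scalings, array weights, a replicate block and leaving out libraries were alternatives. Levels and ratios without single control libraries were added after seeing the data. The fits were tested on simulated data. Intervals are 95% intervals.

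Members and the 18 marker lists were chosen with earlier results of these data known. All members were named; of each list, genes that passed or else up to 4 of the highest mean, plus the partners Csf1, Il34, Cx3cl1, Tyrobp and Apoe. Folr2 and Cd36, and the lymphatic and platelet genes with ranges apart, were named because the counts they belong to were small. Gene positions and exon lengths came from the GRCm38 annotation, promoters from RefSeq, with entries for 7 of 10 members. The lowest difference between replicate libraries was a chi-square of 5.52 per gene, so none was treated as a duplicate.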

Additional observations from a re-analysis of the deposited data

Results flagged for a closer look

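Lyve1 in CP stood out in 1 library of each group: Ins2 library 1 had 3.66 scaled reads with 0 in the other 5, and control 1 had 9.27 with 0 to 1.72 in the other 4. These are 4 and 9 reads. In HT, the summed microglia genes of Ins2 library 2 were 2706 scaled reads, against 2987 to 3049 in the other 4 Ins2 libraries. These 3 were found among 48 groups examined for a library far from the rest, and chance alone flags about 5% of groups.

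Trem2 went opposite ways in the tissues: each Ins2 library was above the control mean in CP and below it in HT, and the difference of the log2 fold changes was 1.03 (adjusted p = 0.251 over 13997 genes, limma errors), which did not pass.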

How the results depend on the processing

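Of 349 alternative values for the members in 32 settings, 325 kept their direction. An adjusted p was given for 333 and 0 of these passed (lowest 0.290); the other 16, from DESeq2, had none. Trem2 kept its direction throughout, with log2 fold changes of 0.66 to 1.08 in CP and -0.25 to -0.16 in HT when single libraries were left out. The difference between the tissues had 0 members called in 30 alternatives (lowest adjusted p from 0.167 to 0.646). The 0.646 came with a mean of at least 50, where only Csf1r, Cx3cr1 and Tmem119 were compared and Trem2 was not.

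Counts over all genes moved. The 2 genes called in CP became 1 with a mean of at least 50, 6 with array weights, 34 with DESeq2 and 1 to 4 without single libraries (1 without control 4, Ins2 1 or Ins2 4, and 4 without Ins2 5). The 0 called in HT became 41 with DESeq2 and 0 to 18 without single libraries (1 without control 4, 18 without control 6). The cause was not tested.

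Directions turned for members with small changes. In CP, Cd163 became 0.091 with edgeR and 0.090 with DESeq2, Pf4 0.046 with edgeR and 0.043 with DESeq2, and Tmem119 -0.080 without controls 2 and 5. In HT, Mrc1 became 0.0098 with edgeR and 0.0086 with DESeq2. Without single libraries, CP Mrc1 ran from -0.37 to 0.087, Cd163 from -0.80 to 0.084, F13a1 from -0.54 to 0.023, Pf4 from -0.37 to 0.21 and Tmem119 from -0.18 to 0.39, and HT Mrc1 from -0.25 to 0.17 and Cx3cr1 from -0.054 to 0.032. The log2 ratio of border to microglia reads, 3.63 higher in CP controls than in HT controls, was 4.26 with P2ry12 and Tmem119 alone as microglia genes and 3.54 to 3.73 without single libraries.

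With the replicate block, 57 genes were called in HT and 2 in CP, and Pf4 in CP became 0.21. Whether the numbers pair the libraries is not stated in the labels. Deviations of same-numbered libraries correlated at -0.15 to 0.14 in CP and -0.07 to 0.0089 in HT. So few pairs cannot exclude a pairing, and some HT replicate numbers differ from the sample codes in the labels.

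Depth limits Lyve1, Pf4, F13a1 and Cd163, with group means of 0.667 to 55.6 reads. A count of 0 still allows 0.0483 to 0.116 reads per M reads, for counting error only.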
